A study of Mus musculus with 16 samples.

Results

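Lysosomal hydrolases and membrane proteins were followed as a set of 39 genes of the 24091 in each deposited count table, matched by gene symbol, and all 39 passed the low-count filter in every comparison. The set was a given list of genes whose products degrade material inside lysosomes or form the lysosomal membrane, and its rule used no measured value, although the list was proposed with earlier results of these data known. Polyadenylated RNA had been sequenced from mouse pancreas at embryonic day 16.5 (E16.5) and from islets of Langerhans of male mice aged 60 weeks, to compare controls with a conditional deletion of Tff2, which encodes the secreted peptide trefoil factor 2. Every animal carried floxed Tff2 alleles on both chromosomes. Controls were Tff2fl/fl without Cre, and knockouts (KO) were Pdx1:Cre;Tff2fl/fl, in which the Pdx1 promoter, active in the early pancreatic epithelium, drives Cre recombinase, so that other cells of the sample are not targeted by this driver. The E16.5 groups held 3 control and 3 KO pancreata from matings of Pdx1:Cre;Tff2fl/+ males with Tff2fl/fl females. The islet groups held 5 controls and 5 KO animals, with islets released by collagenase, enriched on a density gradient and picked by hand. Every KO animal carried Pdx1:Cre and no control did, so the deletion and the Cre transgene cannot be told apart here. Each library had its own animal number, and no litter was given.

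Lysosomes are acidic organelles in which hydrolases take apart glycoproteins, glycosaminoglycans, lipids and proteins delivered by endocytosis and autophagy. Most soluble hydrolases are made in the endoplasmic reticulum, tagged with mannose 6-phosphate and carried to lysosomes by receptors, while a proton pump, the V-ATPase, keeps the lumen acidic. Many lysosomal genes are activated by the transcription factor TFEB and its relatives, which bind a palindromic promoter element known as the CLEAR element, built on the E-box core CACGTG. Inherited loss of single members causes storage diseases. Beta cells use lysosomes to remove surplus insulin granules, and macrophages are rich in them.

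Promoter windows were read for the members because the CLEAR element is the sequence the set is known for. RefSeq windows (GRCm38.p6, the build of the deposited tables, 250 bases before to 50 after each start) were found for 33 of the 39 members, and none for Ctsb, Hgsnat, Npc1, Aga, Asah1 and Ctsh. The letters CACGTG and TCACGTGA were searched on both strands. Each is its own reverse complement, and the shorter lies inside the longer. CACGTG was present in 12 of the 33 members (36.4%), counted by window in 12 of their 35, and in 7.15% of all 32851 windows. TCACGTGA was present in 4 members (12.1%), Ctsa, Ctsd, Gla and Mcoln1, counted by window in 4 of 35, and in 0.974% of all windows. The full 10-base palindrome, with 1 more base on each side, was in none of the 33 and in 0.326% of all windows. A match describes the letters and not binding, which was not measured. The stretches just upstream of the start are printed 5′ to 3′ on the gene's strand, with the motifs in capitals, for 3 of the members with the longer motif, for Lamp1 with 4 copies of the core, for Glb1 with 1, and for Man2b1 with none.
Mcoln1 (chr8:3500399-3500518, plus strand): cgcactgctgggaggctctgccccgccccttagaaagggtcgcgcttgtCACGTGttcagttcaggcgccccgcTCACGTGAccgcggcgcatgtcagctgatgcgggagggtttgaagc
Ctsd (chr7:142387828-142387947, minus strand): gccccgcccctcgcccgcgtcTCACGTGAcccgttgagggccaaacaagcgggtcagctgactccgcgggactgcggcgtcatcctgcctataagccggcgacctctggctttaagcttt
Gla (chrX:134601006-134601245, minus strand): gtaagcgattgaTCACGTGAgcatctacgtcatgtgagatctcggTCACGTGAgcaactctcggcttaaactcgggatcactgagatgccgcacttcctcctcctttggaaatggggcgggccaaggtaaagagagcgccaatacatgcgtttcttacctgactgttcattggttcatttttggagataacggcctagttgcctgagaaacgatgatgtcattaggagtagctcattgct
Lamp1 (chr8:13159041-13159160, plus strand): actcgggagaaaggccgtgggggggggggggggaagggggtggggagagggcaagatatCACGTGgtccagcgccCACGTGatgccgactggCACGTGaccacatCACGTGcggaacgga
Glb1 (chr9:114400958-114401077, plus strand): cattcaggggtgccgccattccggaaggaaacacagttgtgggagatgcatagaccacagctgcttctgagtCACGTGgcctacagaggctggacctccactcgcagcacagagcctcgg
Man2b1 (chr8:85083149-85083268, plus strand): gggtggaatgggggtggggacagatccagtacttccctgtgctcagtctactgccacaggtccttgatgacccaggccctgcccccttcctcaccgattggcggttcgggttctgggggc
The longer motif of Mcoln1, which encodes the lysosomal calcium channel mucolipin 1, begins at base -46 from the start, and that of Ctsd, which encodes the aspartic protease cathepsin D, at base -99. Gla, which encodes alpha-galactosidase A, holds it at bases -228 and -195. The 4 cores of Lamp1, which encodes an abundant glycoprotein of the lysosomal membrane, lie between bases -61 and -15. In the comparison of control tissues, 7 of the 12 members with a core were higher in islets than in E16.5 pancreas and 3 lower (edgeR, adjusted p under 0.05). Of the 21 whose window had no core, 13 were higher and 4 lower. Among all genes tested, 42.4% were higher and 43.6% lower.

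Depth was 14866194 to 22699934 reads in the pancreas libraries and 22595400 to 32385042 in the islet libraries. Members took 0.469% to 0.738% of a library's reads, from 189 reads for Mcoln1 in its shallowest library to 43437 for Psap in its deepest. Tff2 had 848, 406 and 611 reads in control pancreata and 51, 147 and 27 in KO pancreata, which is a difference of -2.80 on the log2 scale (SE 0.535, adjusted p = 0.0297). In islets it had 25 to 135 reads in controls and 0 to 16 in KO animals (log2 fold change -3.07, adjusted p = 0.0884). Acinar genes summed to 51571 to 127043 CPM (read counts per unit of library size) in pancreata and beta cell genes to 132773 to 171869 CPM in islets, so both labelled tissues carried their defining markers. By Xist and Ddx3y, KO pancreas 18 was male, the other 5 pancreata were female and all islets were male. KO pancreas 01 had 542 CPM of the liver gene Alb, against at most 89.9 CPM in any other pancreas. Macrophage genes, a list of 15, summed to 483 to 613 CPM in control and 480 to 892 CPM in KO pancreata, highest in KO 18, and to 222 to 282 CPM in islets. Its 3 most abundant genes, C1qa, Mrc1 and Csf1r, averaged 131, 115 and 67.3 CPM in control pancreata and 61.0, 2.85 and 18.2 CPM in control islets. In bulk RNA, fewer cells of a type and less RNA per cell cannot be told apart.

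The first comparison concerned the level of each member in the tissues, given per kb of the gene length in the tables so that genes can be set side by side. In control pancreas Ctsd led. It averaged 211 CPM per kb, followed by Psap at 153, Lamp1 at 149, Ctsl at 141, Ctsb at 82.7 and Ctsz at 71.1. Psap encodes prosaposin, the precursor of the saposins that present sphingolipids to hydrolases, and Ctsl, Ctsb and Ctsz encode cysteine cathepsins. In control islets Psap led at 488 CPM per kb, followed by Lamp1 at 393, Ids at 174, Ctsd at 165, Asah1 at 128 and Hexa at 107. Ids encodes iduronate-2-sulfatase, which acts on heparan and dermatan sulfate, Asah1 acid ceramidase and Hexa the alpha subunit of beta-hexosaminidase.

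The lowest levels belonged to Idua (2.90 CPM per kb), Sgsh (3.32), Npc1 (3.72) and Gla (4.48) in control pancreas and to Gla (5.65), Sgsh (5.77), Glb1 (5.92) and Npc1 (6.03) in control islets. Idua and Sgsh encode alpha-L-iduronidase and sulfamidase, both of heparan sulfate breakdown, Npc1 a cholesterol exporter of the lysosomal membrane and Glb1 beta-galactosidase. The set thus ran over a wide scale in each tissue, and many neighbours in the order could not be separated: the ranges over libraries overlapped for 22 of 38 neighbouring pairs in control pancreas and 24 of 38 in control islets. In pancreas Ctsd lay above Psap without overlap, whereas Psap overlapped Lamp1 and Lamp1 overlapped Ctsl. In islets Psap lay above Lamp1 and Lamp1 above Ids without overlap, whereas Ids overlapped Ctsd. The level of Glb1 per kb is uncertain, since the tables give it a length of 7.17 kb and GENCODE M21 has 3008 exon bases. That of Sgsh is uncertain as well, because 21.6% of its exon bases are shared with Card14 on the other strand and the strand used in counting was not stated.

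**Figure D1:**
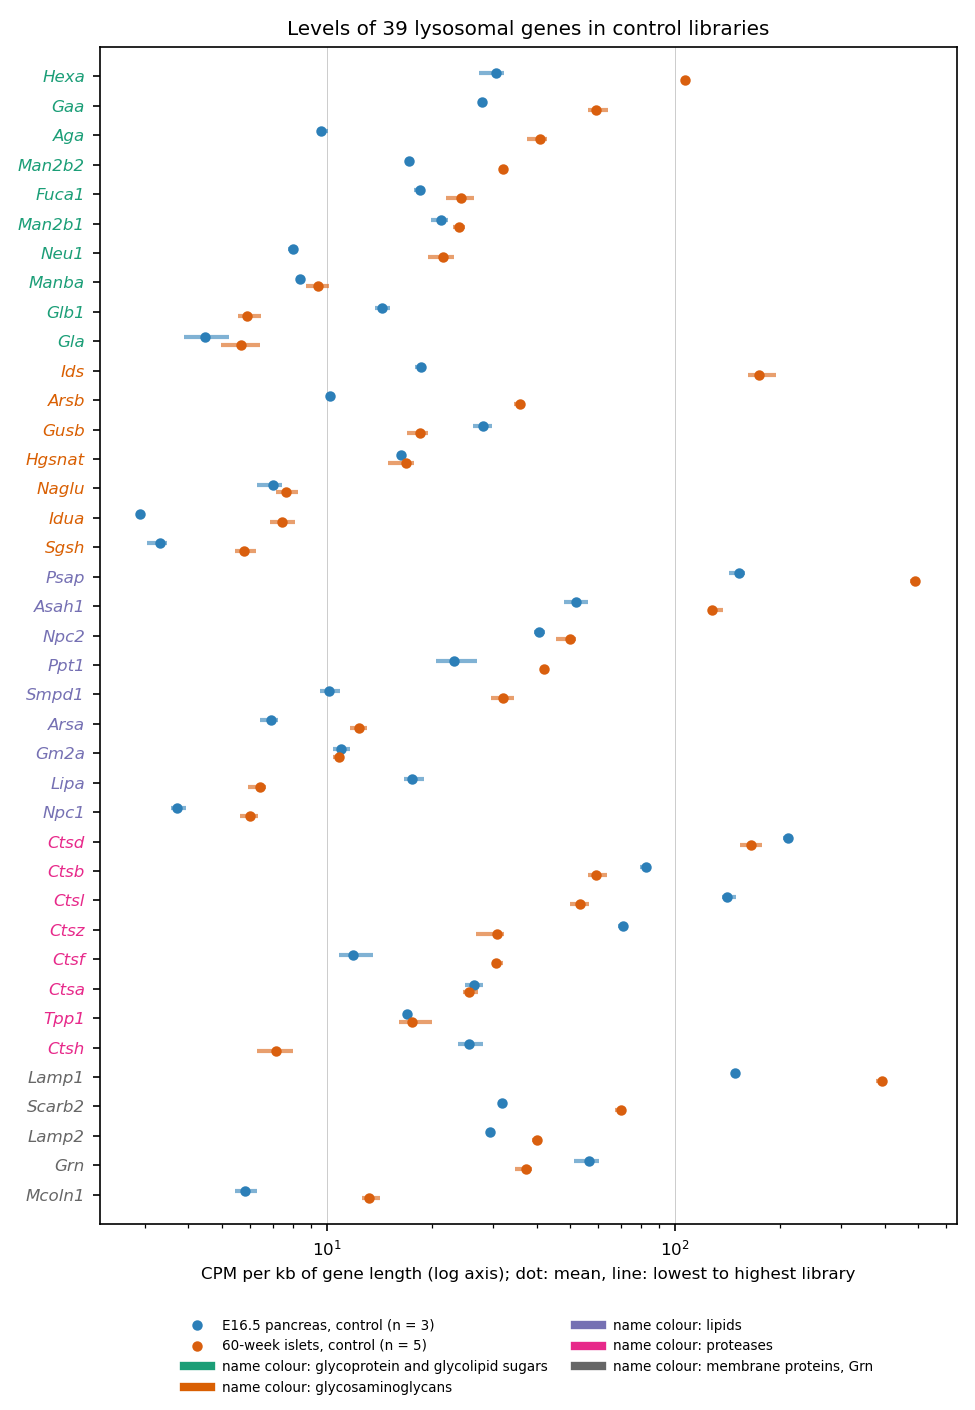
Mean level of each of the 39 genes in CPM per kb of gene length (log axis) in 3 control pancreata and 5 control islet libraries, with lines from the lowest to the highest library and names coloured by role. Psap and Lamp1 lie furthest right in islets (488 and 393 CPM per kb), while Ctsd and Ctsl are higher in pancreas than in islets.

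Across the tissues, most members were higher in adult islets than in fetal pancreas, and the proteases went the other way. In controls, 23 of the 39 members were higher in islets and 9 lower (edgeR, adjusted p under 0.05), where 42.4% of all 15823 genes tested were higher and 43.6% lower, 85.9% in all. The median log2 difference was 0.45 for the members and -0.01 for all genes. Among enzymes that trim sugars of glycoproteins, glycolipids and, for Gaa, glycogen, 7 of 10 were higher and 1 lower. Among those of glycosaminoglycans 4 of 7 were higher and 1 lower, among lipid-handling members 7 of 9 and 1, and among membrane proteins with Grn 4 of 5 and 1. Among proteases 1 of 8 was higher and 5 were lower, with a median of -0.41. Fibroblast genes summed to 15046 to 17522 CPM in control pancreata and to 201 to 252 CPM in control islets. Tissue, age, sex and isolation cannot be told apart in this comparison.

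Ids showed the largest difference. It was at 88.8, 94.1 and 95.2 CPM in control pancreata and at 832, 805, 967, 867 and 849 CPM in control islets, a log2 difference of 3.22 (SE 0.115, adjusted p = 5.16e-14) or 9.32-fold. Every control islet library exceeded every control pancreas, which held for 6488 of all 15823 genes tested, and the reverse held for 6692. Arsb, which encodes arylsulfatase B, the sulfatase of dermatan and chondroitin sulfate, was at 61.7, 61.3 and 59.5 CPM in pancreata and at 206 to 220.3 CPM in islets (log2 difference 1.81, SE 0.0494). Idua, at the foot of the order in pancreas, was at 12.7 to 12.9 CPM there and at 30.4 to 35.8 CPM in islets (log2 difference 1.35). Gusb, which encodes beta-glucuronidase, was the one glycosaminoglycan enzyme that was lower in islets, at 98.7 to 112 CPM in pancreata and 63.9 to 73.3 CPM in islets (log2 difference -0.61, SE 0.0557). Ids, Gla and Lamp2 lie on the X chromosome, and the control pancreata were female and the islets male; the part of sex in their values was not tested.

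Among the sugar-trimming enzymes, Aga, which encodes aspartylglucosaminidase, was at 21.9, 22.0 and 23.5 CPM in control pancreata and at 87.7 to 100.1 CPM in control islets (log2 difference 2.09, SE 0.0571, adjusted p = 1.91e-15). Hexa was at 59.7, 50.8 and 59.0 CPM in pancreata and at 195 to 199 CPM in islets (1.81, SE 0.0972). Neither gene's groups overlapped, as was the case for most genes tested between these tissues. Glb1 was the exception of this class, at 102, 109 and 98.4 CPM in pancreata and at 39.9, 40.8, 46.4, 44.2 and 40.7 CPM in islets (log2 difference -1.28, SE 0.0611, adjusted p = 2.61e-12). Man2b1 and Manba, which encode the lysosomal alpha- and beta-mannosidases, did not pass the test (0.17, adjusted p = 0.0885, and 0.17, adjusted p = 0.0515).

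Lipid-handling members were led by Psap, at 433, 388 and 425 CPM in pancreata and at 1280 to 1354 CPM in islets (log2 difference 1.67, SE 0.0627), and by Smpd1, which encodes acid sphingomyelinase, at 32.7, 36.5 and 31.9 CPM against 98.4 to 115 CPM (1.67, SE 0.0631). Asah1 and Npc1 were also higher in islets (1.30 and 0.70). Lipa, which encodes the acid lipase that frees cholesterol from its esters, was lower, at 49.5, 50.2 and 56.1 CPM in pancreata and 17.6 to 19.8 CPM in islets (-1.45, SE 0.0806). Npc2, which hands the freed cholesterol to Npc1, was higher (0.30, SE 0.0645).

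The proteases that were lower in islets were Ctsh, Ctsl, Ctsz, Ctsb and Ctsd. Ctsh, which encodes the aminopeptidase cathepsin H, was at 38.4, 40.2 and 45.2 CPM in control pancreata and at 10.2 to 12.9 CPM in islets (log2 difference -1.84, SE 0.104, adjusted p = 2.45e-11). Ctsl was at 479, 523 and 476 CPM against 175 to 198 CPM (-1.40, SE 0.0633), and Ctsz, the carboxypeptidase cathepsin Z, at 104, 103 and 98.3 CPM against 38.3 to 46.1 CPM (-1.21, SE 0.0589). Differences were smaller for Ctsb (-0.48) and Ctsd (-0.35). Ctsf, another cysteine cathepsin, was higher in islets (1.37), and Ctsa and Tpp1, which encode a serine carboxypeptidase and a tripeptidyl peptidase, did not pass (-0.05 and 0.05). Macrophage genes moved in the same direction as these proteases, with 12 of the 15 lower in control islets and 2 higher (median -1.10). So did most fibroblast, acinar, duct and pan-epithelial genes (11 of 11, 15 of 19, 6 of 8 and 12 of 15 lower; 0, 1, 1 and 3 higher). All 14 beta cell genes were higher. The part of these cell types in the protease values was not tested.

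Of the membrane proteins, Lamp1 was at 327 to 337 CPM in control pancreata and 838 to 893 CPM in control islets (log2 difference 1.40), Scarb2, the sorting receptor of glucocerebrosidase, at 146 to 154 CPM against 316 to 340 CPM (1.13), and Mcoln1 at 10.8 to 12.6 CPM against 25.2 to 28.2 CPM (1.18). Lamp2 differed less (0.45). Grn, which encodes the secreted and lysosomal protein progranulin, was lower in islets (-0.60). Over 22 alternative settings 31 to 34 members were called. Calls over the whole table were then 13278 to 14407, beside 13594 of 15823 genes (85.9%) in the main setting. With library totals in place of TMM scaling the all-gene median was -0.25 and the member median 0.21, with 21 members higher and 11 lower.

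**Figure D2:**
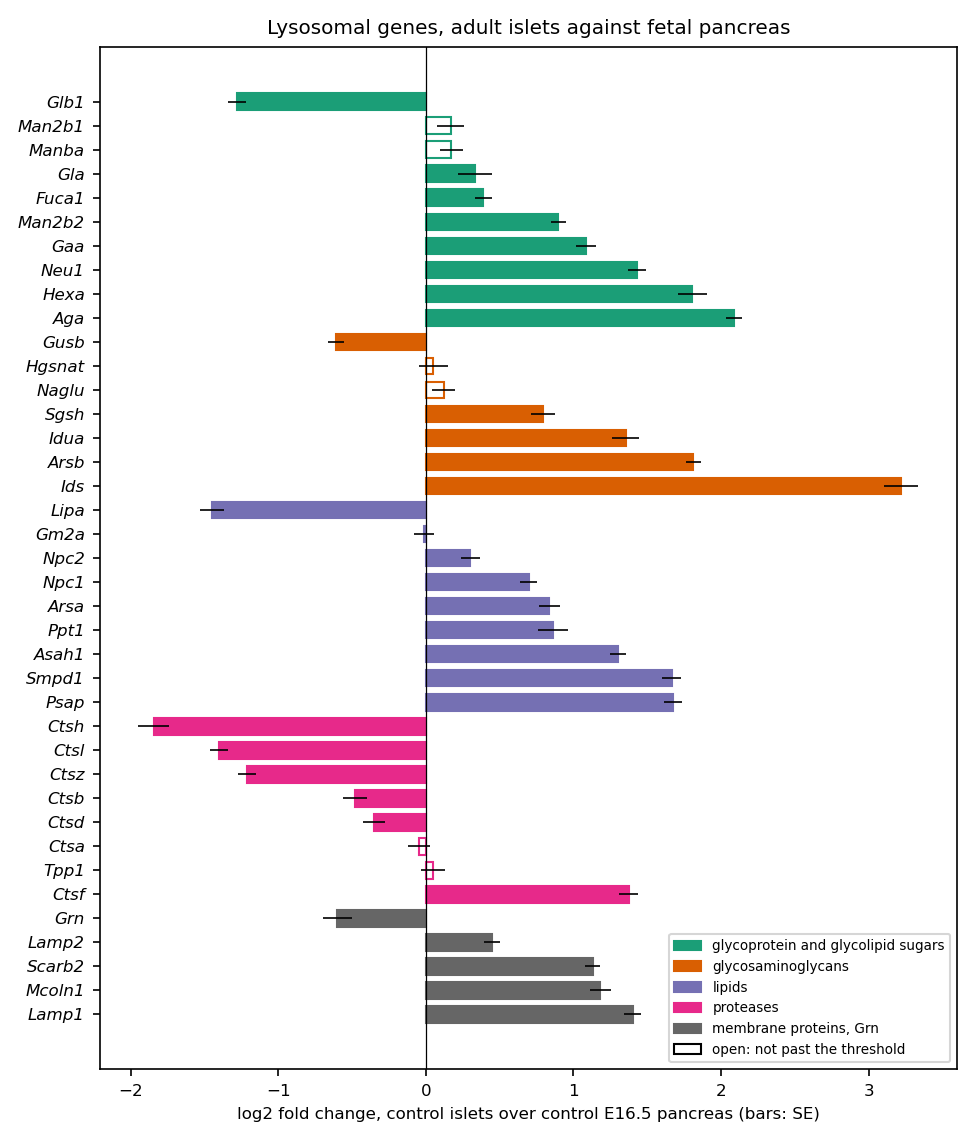
Log2 difference of control islets (n = 5) over control E16.5 pancreas (n = 3) for the 39 genes, ordered within roles, with bars for the SE and open bars for genes that did not pass the test. Ids reaches 3.22 and Ctsh -1.84, and 5 of the 8 proteases lie below 0 past the threshold.

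The genes around the set were counted by group, beside the 42.4% of all genes that were higher and the 43.6% that were lower. In a list of 18 V-ATPase subunits, all 18 were higher in control islets than in control pancreas (median log2 difference 1.44). Of 31 further hydrolases and their activators 16 were higher and 11 lower, and of 30 further membrane proteins and transporters 14 and 10. In a list of 22 genes for mannose 6-phosphate tagging and sorting, 15 were higher and 3 lower, among 22 regulators of lysosomal genes and of mTORC1 18 and 4, and among 29 autophagy genes 22 and 3.

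In fetal pancreas, the members were compared between KO and control animals at E16.5. No member passed the test (0 of 39; edgeR, adjusted p under 0.05), where 6.43% of all 14914 genes tested were called, 3.75% higher and 2.68% lower. Those shares were 5.22% and 1.2% with library totals as the scaling, and without control 02, 08 or 13 the whole table gave 0, 4 and 0 calls. At an unadjusted p under 0.05 there were 7 members, 5 of them lower and 2 higher, against 12.4% of all genes lower and 13% higher. DESeq2, which called 10.4% of all genes, and limma-voom each called 1 member. Member effects were small, from -0.30 to 0.20 on the log2 scale, with 25 below 0 and 14 above and a median of -0.05 against -0.00121 for all genes. The median was above 0 with library totals (0.03), with acinar content as a covariate (0.10) and without KO pancreas 01 (0.00175, with 20 members above 0 and 19 below). Values of 11 members were lower in every KO than in every control and of 2 higher, where 18.2% and 13.5% of all genes did the same.

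By role, all 8 proteases had a log2 fold change below 0 (median -0.12) and so had 9 of the 10 sugar-trimming enzymes (median -0.13), where 50.2% of all genes were below 0. The protease count depended on the scaling and on 1 library: 4 of the 8 were below 0 with library totals, 4 without KO pancreas 01, 3 with acinar content as a covariate and none with pan-epithelial scaling, described further on. For the sugar-trimming enzymes the same settings gave 8, 7, 6 and 0 of 10. Of the lipid-handling members 6 of 9 were above 0 (median 0.02), and of the membrane proteins with Grn 4 of 5, which became 4 and 2 with macrophage content as a covariate. The SEs of single members ran from 0.0530 to 0.140, so that most of these values were within 2 SE of 0.

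Ctsz came nearest to the threshold. It was at 104, 103 and 98.3 CPM in control pancreata and at 82.4, 91.2 and 80.5 CPM in KO pancreata, so that the groups did not overlap (log2 fold change -0.25, SE 0.0642, adjusted p = 0.0580). It passed without KO pancreas 18, the male one with the most macrophage RNA (adjusted p = 0.0398), with macrophage content as a covariate (0.0259), with DESeq2 (0.0332) and with limma-voom (0.0470). These were 4 of 16 alternatives. In 11 Ctsz did not pass, and in 1, pan-epithelial scaling, its sign was reversed. Over all 16 the adjusted p reached 0.222. Ctsf was at 24.3, 23.5 and 29.4 CPM in controls and at 20.7, 20.1 and 21.1 CPM in KO pancreata (-0.30, SE 0.0987, adjusted p = 0.104), and the fold change was -0.20 without control 13. Ctsl was at 479, 523 and 476 CPM against 377, 446 and 450 CPM (-0.20, SE 0.0864, adjusted p = 0.198), and the fold change was -0.12 without KO 01. In each of these proteases all 3 KO values lay below all 3 control values.

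Among the other enzymes, Glb1 was at 102, 109 and 98.4 CPM in control and 79.8, 84.4 and 95.01 CPM in KO pancreata (log2 fold change -0.24, SE 0.0763, adjusted p = 0.0984). Neu1, which encodes the sialidase that works in a complex with Glb1 and Ctsa, was at 29.7, 31.7 and 30.6 CPM against 24.7, 27.4 and 26.1 CPM (-0.22, SE 0.0691, adjusted p = 0.0951). For Naglu, which encodes alpha-N-acetylglucosaminidase of heparan sulfate breakdown, controls were at 23.7, 24.2 and 20.5 CPM and KO pancreata at 16.9, 19.8 and 19.8 CPM (-0.26, SE 0.1004, adjusted p = 0.151). Ctsa, the third partner of that complex, had overlapping groups (-0.04). Npc1 was the member with the highest fold change, at 34.7, 32.2 and 31.5 CPM in controls and 36.6, 36.5 and 38.6 CPM in KO pancreata (0.20, SE 0.0661, adjusted p = 0.108).

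The KO pancreata were not alike. KO 01 was the lowest of the 3 for 29 of the 39 members, and KO 18 the highest for 22. Man2b1, for example, was at 95.9, 85.9 and 92.3 CPM in controls and at 63.2 CPM in KO 01, 93.7 in KO 18 and 86.7 in KO 19 (log2 fold change -0.16, adjusted p = 0.494, and 0.00175 without KO 01). KO 01 also had the lowest sums of acinar and macrophage genes (51571 and 480 CPM) and the highest of Alb, and KO 18 the highest macrophage sum (892 CPM); their part in these values was not tested. With macrophage content as a covariate 3 members were called, all lower, Ctsz, Ctsd (adjusted p = 0.0260) and Man2b1 (0.0401). The same covariate gave 2085 calls among all 14914 genes tested.

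Most pan-epithelial and beta cell genes were lower in the KO pancreata. Of 15 pan-epithelial genes 11 fell and none rose (median -0.47), and of 14 beta cell genes 9 fell (median -0.89). Of all genes, 2.68% fell. Of 19 acinar genes 0 were called (median -0.50), and of 10 endothelial genes 2 fell (median -0.41). With a library left out, calls over the whole table ranged from 0 to 1035. Scaled to the pan-epithelial genes, the median of all genes rose to 0.42 and that of the members to 0.38, and 29 members were called higher and none lower, where 67.6% of all genes were higher and 0.241% lower. Ctsz, Ctsf, Ctsl, Glb1, Neu1 and Naglu were then above 0, from 0.11 for Ctsf to 0.23 for Ctsl, and all 6 below that all-gene median. Whether lysosomal RNA per epithelial cell differed was not tested. Of the 15 macrophage genes 1 rose, Lyz2, which encodes lysozyme (0.95, adjusted p = 0.0461), where 3.75% of all genes rose. The median was 0.40, with 13 above 0 and 2 below. DESeq2 and limma-voom called Cybb and Ptprc higher as well. The 3 most abundant in controls, C1qa, Mrc1 and Csf1r, were not called by edgeR, with log2 fold changes of -0.31, 0.06 and 0.32.

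In adult islets, the same KO genotype was compared with control at 60 weeks. Man2b1 fell, and no other member passed the test (1 of 39, where 0.155% of all 14219 genes tested were called, 0.113% higher and 0.0422% lower). Man2b1 encodes lysosomal alpha-mannosidase, which removes mannose from N-linked glycans in the last steps of glycoprotein breakdown, and its loss causes alpha-mannosidosis. It was at 107, 99.2, 104.6, 103 and 99.9 CPM in control islets and at 83.0, 88.1, 91.1, 82.7 and 81.2 CPM in KO islets. Every KO library lay below every control library, which 0.781% of all genes showed in this direction. The log2 fold change was -0.27 (SE 0.0407, adjusted p = 0.0249), or 0.829-fold.

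That call was near the limit of the test. The fold change stayed between -0.29 and -0.25 over 20 alternatives, while the adjusted p ranged from 4.55e-06 (DESeq2) to 0.0879. It missed the threshold in 10 of them: without any 1 of the 5 controls, without KO 055, 812 or 845, with library totals (0.0578) and with macrophage content as a covariate (0.0744). Leaving out a library, the adjusted p was 0.0275 to 0.0879. At E16.5 the effect on Man2b1 was -0.16 (SE 0.132), and the difference between tissues was -0.10 (SE 0.127, adjusted p = 0.716).

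**Figure D3:**
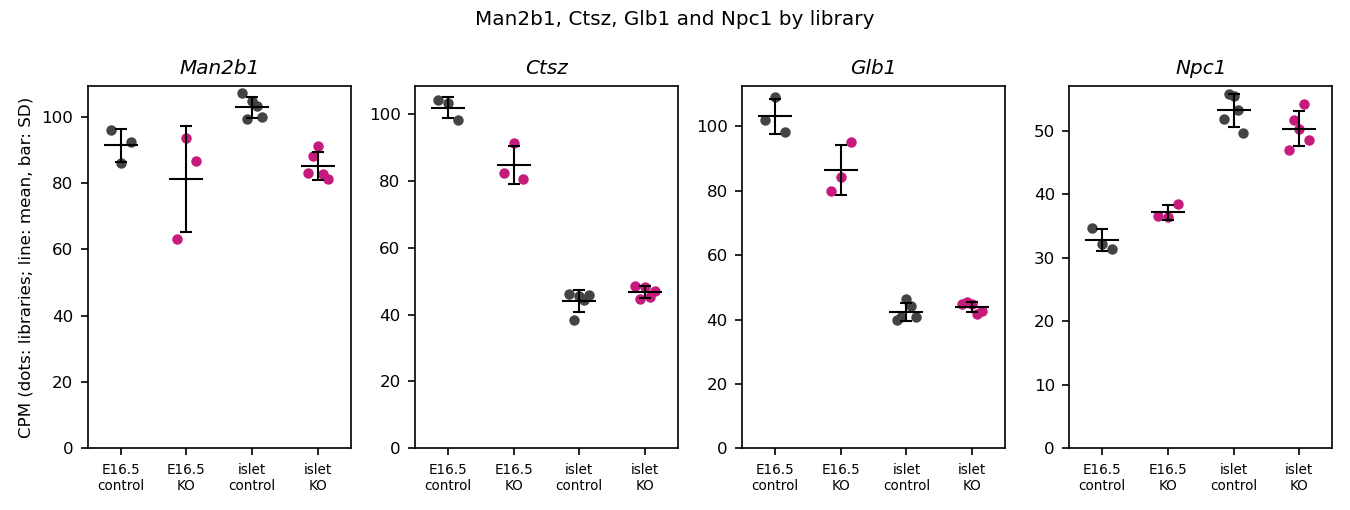
Levels of Man2b1, Ctsz, Glb1 and Npc1 in CPM in every library of the 4 groups, with the group mean as a line and the SD as a bar. The 5 KO islet values of Man2b1 (81.2 to 91.1 CPM) lie below the 5 control values (99.2 to 107 CPM), and the 3 KO pancreas values of Ctsz below the 3 control values.

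The other islet effects were small. Of the 39 members 27 had a log2 fold change above 0 and 12 below, with a median of 0.03 against -0.00119 for all genes. An unadjusted p under 0.05 was reached by 3 members, Man2b1, Ctsa and Mcoln1, and by 7.18% of all genes. Ctsa was at 95.6, 89.2, 97.8, 91.0 and 88.6 CPM in control and 109, 112, 97.4, 94.5 and 93.5 CPM in KO islets (0.13, SE 0.0559, adjusted p = 0.643). Mcoln1 was at 28.2, 26.5, 26.0, 25.2 and 25.8 CPM against 28.1, 31.1, 29.0, 26.9 and 28.2 CPM (0.12, SE 0.0510, adjusted p = 0.621). The groups of both overlapped. The other members with the largest fold changes were Ctsh (0.13, SE 0.0844), Gaa, which encodes the alpha-glucosidase of lysosomal glycogen (0.10, SE 0.0561), and Gla (0.10, SE 0.0916), with adjusted p of 0.818, 0.749 and 0.879. Macrophage genes summed to 226 to 255 CPM in control and 222 to 282 CPM in KO islets, and edgeR called none of the 15 (1 at an unadjusted p under 0.05; none with DESeq2 or limma-voom).

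For the enzymes that work beside Man2b1 on the same glycans, the islet values did not pass the test. Manba had a log2 fold change of 0.03, Man2b2, the core-specific alpha-mannosidase, of 0.07, Fuca1, the alpha-fucosidase, of 0.04 and Aga of 0.05, each with an SE of 0.0427 to 0.0554.

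**Figure D4:**
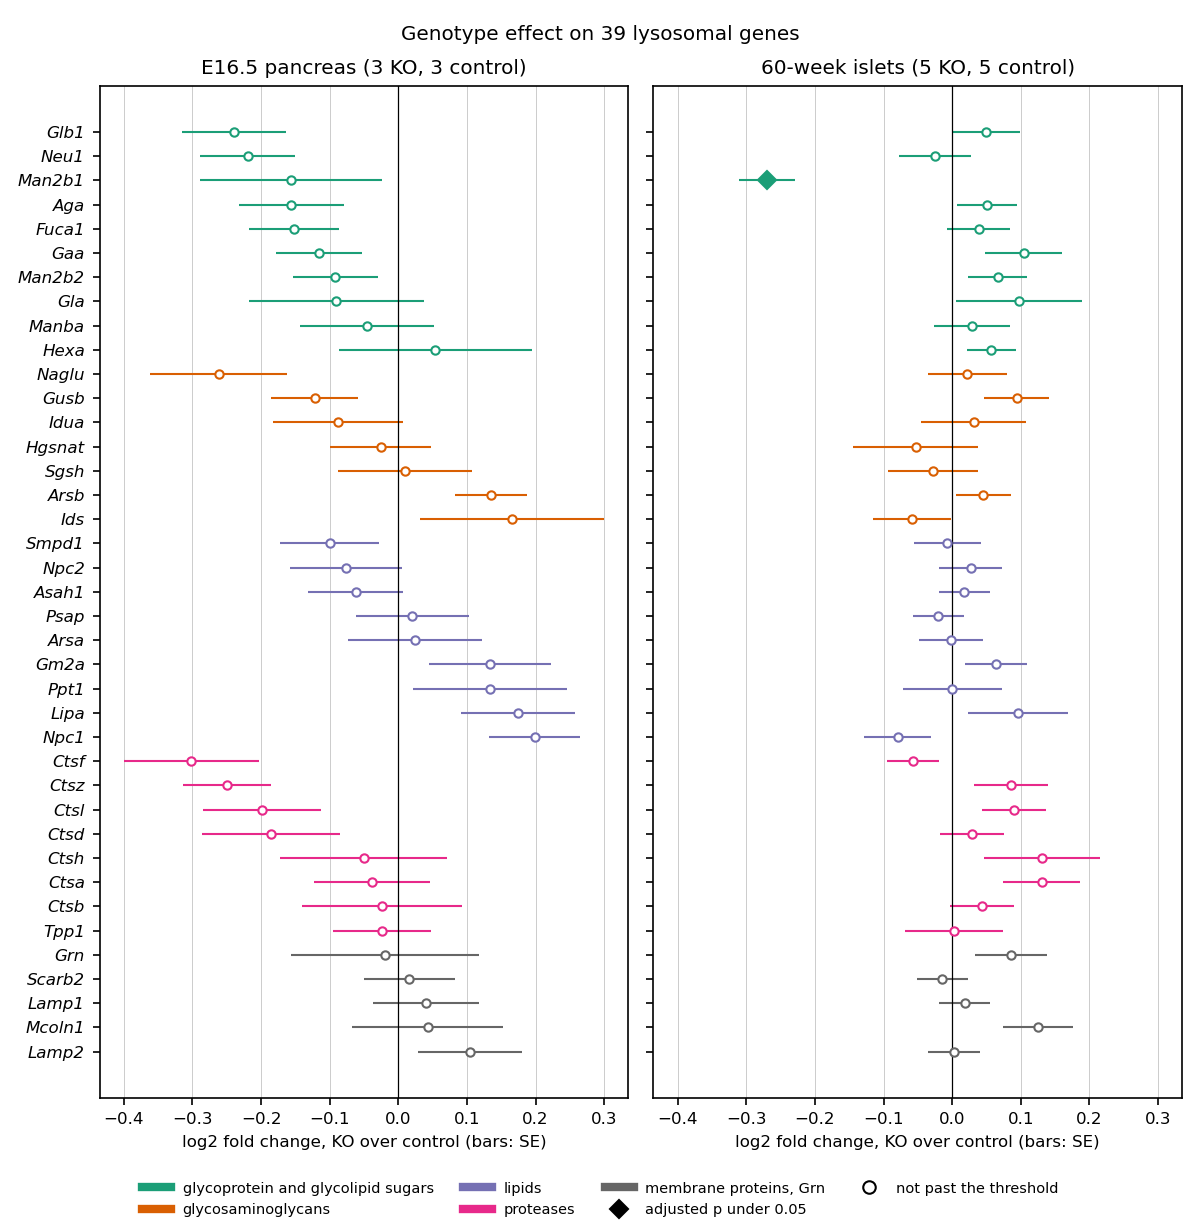
Log2 fold change of KO over control with its SE for the 39 genes in E16.5 pancreas (left, 3 KO and 3 control) and in 60-week islets (right, 5 and 5), coloured by role. Man2b1 in islets (-0.27) is the filled marker past the threshold, and the 8 proteases lie left of 0 at E16.5, while 4 do so with library totals as the scaling.

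The genes next to Man2b1 were then described, a choice made after its value was seen. Man2b1 lies on chr8:85083269-85098739 (mm10, plus strand), on another chromosome than Tff2. Of the 22 genes called in islets 3 were on chromosome 8, where 750 were tested, and all 3, Man2b1 among them, lay within 5 Mb of its start. Orc6, which encodes a subunit of the origin recognition complex, begins 0.201 Mb beyond the end of Man2b1 and rose by 0.38 (adjusted p = 0.0211). Zfp423, which encodes a zinc finger transcription factor, begins 2.56 Mb beyond it and rose by 5.99 (adjusted p = 0.00268). Zfp423 was at 0.873 to 1.76 CPM in control islets, at 8.50 CPM in KO 055 and at 83.8 to 130 CPM in the other 4 KO islets, while at E16.5 its fold change was -0.02 (adjusted p = 0.957). With Man2b1 itself counted, 11 of 46 tested genes within 1 Mb of it had an unadjusted p under 0.05 in islets (23.9%). Within 5 Mb, again with Man2b1, 18 of 85 genes did (21.2%), against 8.13% on chromosome 8 and 7.18% of all genes. They went in both directions, among them Gm38426 (0.57), Mast1 (-0.40) and Vps35, which encodes a retromer subunit (0.15). At E16.5 the share was 40.9% of 44 genes within 1 Mb and 32.9% of 82 within 5 Mb, against 25.1% of the genes tested in both tissues. The cause was not tested.

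**Figure D5:**
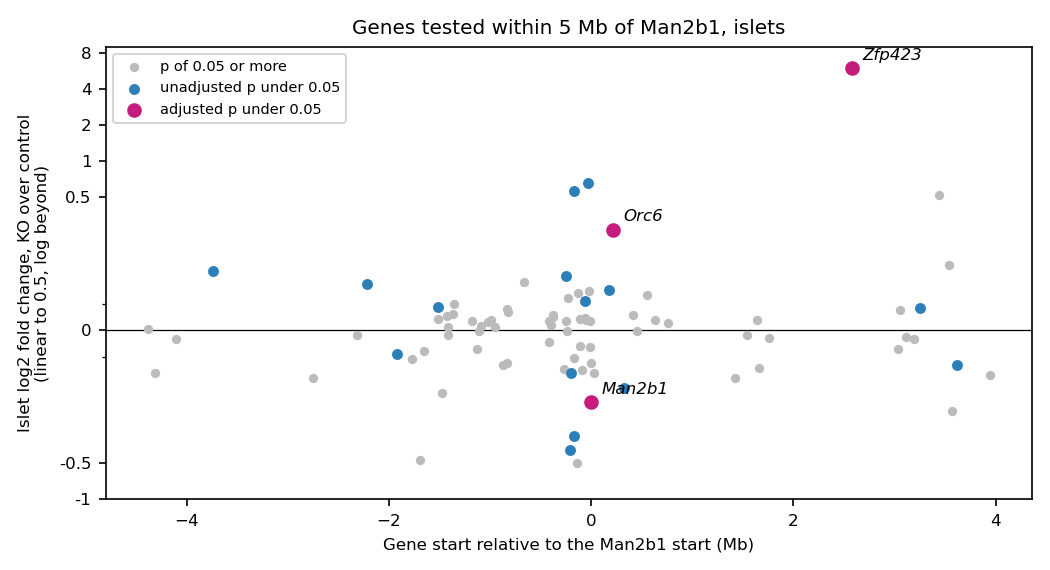
Islet log2 fold change, KO over control, of 85 genes tested within 5 Mb of Man2b1 against the distance of their starts from its start (vertical axis linear to 0.5 and logarithmic beyond). The 3 genes past an adjusted p of 0.05 are Man2b1 (-0.27), Orc6 (0.38) and Zfp423 (5.99).

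Whether the genotype effect on the members differed between the 2 tissues was tested as an interaction over all 16 libraries. Ctsz and Glb1 differed (2 of 39, where 7.19% of all 15823 genes were called, 3.94% with a higher and 3.25% with a lower effect in islets). The effect on Ctsz in islets exceeded that at E16.5 by 0.35 (SE 0.0852, adjusted p = 0.0211), and that on Glb1 by 0.30 (SE 0.0884, adjusted p = 0.0471). Ctsz was at 46.1, 38.3, 45.7, 44.2 and 45.8 CPM in control islets and at 48.6, 44.6, 48.2, 45.2 and 46.9 CPM in KO islets (0.09, adjusted p = 0.811), with overlap, against the lower KO values at E16.5. For Glb1, KO islets were at 44.9, 45.3, 44.7, 41.9 and 42.6 CPM against 39.9 to 46.4 CPM in controls (0.05, adjusted p = 0.892). So neither genotype effect passed in a tissue by itself, and the difference did.

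Below these, Ctsl (0.31, adjusted p = 0.0544) and Npc1 (-0.26, adjusted p = 0.0587) came nearest. Npc1 was at 51.9, 55.8, 55.5, 53.2 and 49.6 CPM in control islets and at 46.9, 51.7, 50.3, 54.2 and 48.6 CPM in KO islets, the opposite order from E16.5, with overlap in islets. Of the 39 members 13 had an unadjusted p under 0.05, 12 with a higher effect in islets, where 12.3% of all genes were so, and 1 with a lower one, where 9.79% were. All 8 proteases and 9 of the 10 sugar-trimming enzymes had a difference above 0, which became 7 and 8 with library totals and 6 and 7 without KO pancreas 01. The difference was above 0 for 25 of all 39 members and for 8333 of all 15823 genes. Over 20 alternatives 0 to 4 members were called, none without control pancreas 02 or KO pancreas 01. Ctsz lost its call in 3 alternatives, without control 02, control 08 or KO 01 (adjusted p up to 0.0642). Glb1 lost its call in 15, and its adjusted p was 0.0121 to 0.125 over all 20. With library totals the members called were Ctsz (0.28) and, in the other direction, Npc1 (-0.33), and the shares of all genes were 1.89% higher and 3.84% lower. Beta cell and pan-epithelial genes differed the same way, with 11 of 14 and 11 of 15 called higher, and their part in the members' values was not tested.

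Genes of the wider pathway were read against the same all-gene shares. At E16.5, where 6.43% of all genes were called, among 30 further membrane proteins Abcb9, the lysosomal peptide transporter TAPL, fell from 11.1 ± 1.07 to 6.32 ± 0.402 CPM (SD, n = 3 per group; log2 fold change -0.79, edgeR adjusted p = 0.0198). Gnptg, a subunit of the enzyme that makes the mannose 6-phosphate tag, fell by 0.32 (adjusted p = 0.0424), the one call in 22 tagging and sorting genes, and Lamtor2, of the Ragulator complex that anchors mTORC1 on lysosomes, fell by 0.40 (adjusted p = 0.0317), the one in 22 regulators. edgeR called no V-ATPase subunit of 18 and no autophagy gene of 29 (6 and 4 at an unadjusted p under 0.05; none with DESeq2 or limma-voom), and no gene of these 6 lists rose. DESeq2 called 1 higher, Gnptab, another subunit gene of the tagging enzyme.

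In islets edgeR called none of the 150 genes of the 6 lists that were tested, where 0.155% of all genes were called, and 8 had an unadjusted p under 0.05, where 7.18% of all genes did. limma-voom called none as well, and DESeq2 called 1, Vps35, the retromer gene near Man2b1. The interaction called 7.19% of all genes, and among the list genes called were Abcb9 (0.99), Cd63 (0.34), Gnptg (0.39), Gga1 (0.29) and Lamtor2 (0.37) with a higher effect in islets and the V-ATPase subunit gene Atp6v0e2 (-0.43) with a lower one. Cd63 encodes a tetraspanin of late endosomes and Gga1 an adaptor that loads mannose 6-phosphate receptors at the Golgi. Abcb9, for which the difference was greatest, was at 57.5 ± 3.06 CPM in control and 65.1 ± 3.84 CPM in KO islets (SD, n = 5 per group; log2 fold change 0.18, edgeR adjusted p = 0.329).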

How the data were processed

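Messenger RNA was measured in 16 libraries: 3 control and 3 KO pancreata at E16.5, and 5 control and 5 KO islet samples. The authors deposited 2 tables of raw read counts per gene with gene positions (mm10) and a gene length. Per the submitters' processing notes, Trimmomatic, STAR 2.6.0, HTSeq 0.11.1 and edgeR were used. The annotation version was not stated in the sources used here, nor was the strand setting. Exons of 11 members overlap those of other genes in the tables, 10 of them on the other strand (GENCODE M21), which adds uncertainty to Hexa, Glb1, Idua, Sgsh, Arsa, Ppt1, Ctsa, Ctsb, Ctsz, Lamp1 and Grn.

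From these counts edgeR 4.0.16 in R 4.3.3 was run with its quasi-likelihood F test on the whole table of each tissue, with TMM scaling, the default filterByExpr filter and Benjamini-Hochberg adjustment over all genes tested, at a threshold of 0.05. Tissue and interaction contrasts came from 1 model of the 4 group means over all libraries. Levels are CPM on a common TMM scale of the 16 libraries, and SEs were derived from the F statistic. Alternatives used other scalings and filters, DESeq2 1.42.0, limma-voom (limma 3.58.1), a robust fit, covariates and each library left out in turn, and the code was tested on simulated data. No pair of libraries in a group agreed within sampling noise (chi-square per degree of freedom at least 4.90). Labels do not say that libraries of a group came from separate litters, so p-values measure the spread between these animals.

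The members and all gene lists were chosen with earlier results of these data known. Named were members called in a genotype comparison or the interaction, the 6 with the largest fold change in each genotype comparison and in each direction between tissues, the 6 most and 4 least abundant per kb, those with the 8-base motif, up to 3 called genes per list, and the 3 most abundant macrophage genes. Others named for their role or neighbourhood were chosen after their values were seen. One gene of the wider lists is not reported here.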

Additional observations from a re-analysis of the deposited data

Results flagged for a closer look

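In 5 of 78 groups of 5 islet libraries examined, 1 library lay far from the other 4 for a member, and chance gives about 1 in 20. Arsb was at 238.2 CPM in KO islet 803, where the next KO value was 218.5, and Arsa at 46.9 CPM in the same library, where the next was 42.5. That library was the highest of the KO islets for 22 of the 39 members. Ctsz was at 38.3 CPM in control islet 826, with the nearest value at 44.2, and that library was the lowest control for 19 members. Hgsnat was at 39.8 CPM in control islet 052 (nearest 45.6), and Asah1 at 363 CPM in control islet 857 (nearest 335). None of these genes was called in islets.

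In the main setting the genotype effects on Ctsz and Glb1 differed between the tissues, 2 of 39 members, where 7.19% of all genes were called. The islet effect minus the E16.5 effect was 0.35 for Ctsz (edgeR adjusted p = 0.0211) and 0.30 for Glb1 (adjusted p = 0.0471), with all 3 KO pancreata below all 3 controls for both genes and overlapping values in islets. For Ctsz, the difference was 0.31 with an adjusted p of 0.0184 without control islet 826. Over 20 alternatives Ctsz lost its call in 3 and Glb1 in 15.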

How the results depend on the processing

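No paired analysis was possible because the groups compared share no replicate number. At E16.5, 0 members were called; DESeq2 and limma-voom each called 1, the macrophage covariate 3 and pan-epithelial scaling 29, and with 1 library left out the count was 0 to 1. Pan-epithelial scaling reversed the sign of Ctsf (0.11), Naglu (0.17), Ctsz (0.18), Glb1 (0.19), Neu1 (0.21) and Ctsl (0.23), along with a shift of the all-gene median to 0.42. In islets the 1 member called became 0 with library totals and with the macrophage covariate, and 0 to 1 with a library left out. For the interaction, 2 members called became 1 with RLE size factors and 4 with DESeq2, and 0 to 3 with a library left out. The tissue calls stayed at 31 to 34 of 39 in all 22 alternatives, where 13278 to 14407 of all genes were called. With library totals in place of TMM, the level in CPM of the member most abundant per kb moved from 411 to 447 CPM (Ctsd, control pancreas), 357 to 413 (Ctsd, KO pancreas), 1326 to 1226 (Psap, control islets) and 1307 to 1229 (Psap, KO islets). Over the whole table, E16.5 calls were 959, with 1550 by DESeq2, 2085 with the macrophage and 527 with the acinar covariate, and 0 to 1035 with a library left out. Islet calls were 22, with 112 by DESeq2, 7 with the macrophage covariate and 5 to 26 with a library left out. With 3 pancreata a group, single members had an SE of 0.0530 to 0.140 at E16.5, and a missed threshold does not show that values were equal.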
